A study of Mus musculus with 9 samples.

Results

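Macrophage marker genes were followed in mouse kidney as a set of 10: C1qa, C1qb, C1qc, Csf1r, Adgre1, Cd68, Lyz2, Mpeg1, Cd14 and Mrc1. They were taken by symbol from a table of raw counts for 55359 genes, and all 10 passed the filter on low counts that left 17179 genes to test. Whole kidney had been sequenced in 9 libraries, 3 per group. The HFD-STZ DHZ group was fed a high-fat diet (49.0% of calories from fat) from 6 weeks of age and made diabetic with 2 injections of streptozotocin, a toxin of insulin-producing beta cells, at 30 mg/kg on days 60 and 63. After a blood glucose test on day 65 it was dosed by mouth with dehydrozingerone (DHZ), a phenolic compound of ginger related to curcumin, at 50 mg/kg for 2 weeks. The HFD-STZ vehicle group had the same diet and streptozotocin and, per its titles, vehicle. The NCD vehicle group was fed a normal calorie diet (11.32% of calories from fat) from the same age. No transgene or deletion is named for any group, and the sources used here do not give strain or sex. The labels do not say that the 9 tissue samples came from separate mice, so the p-values speak only for the spread among these samples.

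Kidney macrophages sit in the interstitium around tubules and vessels, where they take up debris, immune complexes and microbes and present antigen. Resident cells and cells derived from blood monocytes both depend on the receptor CSF1R, a tyrosine kinase switched on by the ligands CSF1 and IL34, for survival and growth. They are a main source of C1q, the recognition molecule of the classical complement pathway, whose subunits are the products of C1qa, C1qb and C1qc. The remaining markers serve in killing and digestion (Mpeg1, Lyz2, Cd68), in recognition and uptake (Cd14, Mrc1) or at the surface of mature macrophages (Adgre1).

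Total counts were 15.1 to 47.5 M (mega) per library, of which mitochondrially encoded genes took 39.2% to 60.4%. Nuclear protein-coding genes were left with 7.63 to 15.21 M counts in HFD-STZ DHZ, 2.13 to 6.52 M in HFD-STZ vehicle and 4.59 to 8.49 M in NCD vehicle. HFD-STZ vehicle replicate 2 was the shallowest (2.13 M), and its 3 C1q genes together had 18 counts. Y-linked transcripts marked HFD-STZ DHZ replicate 3, HFD-STZ vehicle replicates 2 and 3 and NCD vehicle replicate 1, while the other 5 libraries expressed Xist, so sexes were mixed within every group. Every library carries a different batch date in the labels, and the dates run in the order of the groups, so a batch effect and a group effect cannot be told apart. Malat1, an abundant nuclear RNA looked up after its values were seen, stood at 11116, 9298 and 15058 CPM in HFD-STZ DHZ, against 32992, 96806 and 39553 CPM in HFD-STZ vehicle and 47779, 18577 and 15327 CPM in NCD vehicle. The part of depth, sex and Malat1 in the results was not tested beyond the fits with libraries left out or split by Y-linked transcripts. CPM are counts per M of library size, scaled with edgeR's trimmed mean of M values, TMM. All 12 genes of a kidney list, such as Umod, Slc34a1 and Aqp1, passed the filter.

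Promoters are shown for C1qb, C1qc, Mpeg1 and Lyz2, the markers called higher in HFD-STZ DHZ than in NCD vehicle, to let the letters upstream of genes that moved together be compared. Each line is the 250 bases before the start of the gene on its own strand, 5′ to 3′, from RefSeq on build GRCm38.p6. C1qb lies at chr4:136886201-136886450 and C1qc at chr4:136892915-136893164, both on the minus strand, Lyz2 at chr10:117282273-117282522 on the minus strand and Mpeg1 at chr19:12460520-12460769 on the plus strand. Capitals mark the core GAGGAA, or TTCCTC where it lies on the opposite strand, which is bound by PU.1, the factor that directs macrophage development.
C1qb: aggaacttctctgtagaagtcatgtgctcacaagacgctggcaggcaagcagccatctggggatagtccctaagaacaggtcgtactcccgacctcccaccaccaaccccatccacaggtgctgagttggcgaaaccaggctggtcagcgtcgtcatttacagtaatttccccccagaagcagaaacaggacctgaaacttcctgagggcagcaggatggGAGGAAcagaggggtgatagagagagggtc
C1qc: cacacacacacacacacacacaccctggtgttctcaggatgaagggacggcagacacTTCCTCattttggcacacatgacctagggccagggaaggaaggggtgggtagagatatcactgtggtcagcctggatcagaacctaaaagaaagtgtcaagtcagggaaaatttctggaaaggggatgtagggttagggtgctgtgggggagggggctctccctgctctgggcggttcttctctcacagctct
Mpeg1: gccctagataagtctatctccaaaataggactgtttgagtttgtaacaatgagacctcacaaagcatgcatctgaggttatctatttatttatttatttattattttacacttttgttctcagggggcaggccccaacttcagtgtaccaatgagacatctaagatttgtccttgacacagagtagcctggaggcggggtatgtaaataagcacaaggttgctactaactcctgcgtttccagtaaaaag
Lyz2: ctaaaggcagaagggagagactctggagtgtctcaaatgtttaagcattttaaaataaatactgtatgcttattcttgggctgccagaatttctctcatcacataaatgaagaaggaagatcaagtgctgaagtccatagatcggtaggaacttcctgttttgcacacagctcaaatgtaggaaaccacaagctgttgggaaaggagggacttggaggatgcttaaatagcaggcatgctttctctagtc

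The core occurred once in the C1qb window, starting 30 bases before the start of the gene, and once in the C1qc window, 193 bases before it. In the windows of Mpeg1 and Lyz2 these letters were not found. Among the other members whose windows were read, Cd68 had 1 core and Mrc1 had 3. Of 32851 mouse promoter windows of the same length, 23.3% held the core on either strand. The AP-1 motif TGANTCA, which shares no letters with the core at the sites found, was present in the Cd68 window in 2 copies and in none of the other 5 windows, against 6.7% of all windows. A match describes letters only.

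Kidneys of HFD-STZ DHZ mice had more RNA of the C1q genes and of Mpeg1 than kidneys of HFD-STZ vehicle mice, by 2.42-fold to 3.63-fold, and less RNA of Csf1r, which was 2.14-fold lower. Of the 10 markers, 4 rose and 1 fell at an adjusted p below 0.05 in edgeR's quasi-likelihood test, adjusted by Benjamini-Hochberg across the 17179 genes. Over all genes 22.1% were called in this comparison, 10% higher and 12% lower. The median log2 fold change was 1.13 over the 10 markers and 0.04 over all genes tested, and it was 1.27 over the 9 markers other than Csf1r, whose estimates ran from 0.69 to 1.86. In bulk tissue, a change in the number of macrophages and a change in RNA per macrophage cannot be told apart.

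C1qa, which encodes the A chain of C1q, stood at 4.56, 4.95 and 6.80 CPM in HFD-STZ DHZ, against 2.49, 0.135 and 1.44 CPM in HFD-STZ vehicle and 2.41, 3.24 and 3.30 CPM in NCD vehicle. All 3 HFD-STZ DHZ libraries lay above the other 6. The 0.135 CPM of HFD-STZ vehicle replicate 2 was a single count. C1qb, the B chain gene, stood at 4.70, 4.94 and 7.30 CPM in HFD-STZ DHZ, against 2.82, 1.08 and 1.48 CPM in HFD-STZ vehicle and 2.46, 1.99 and 2.71 CPM in NCD vehicle. For C1qc, the C chain gene, the values were 2.94, 3.16 and 4.51 CPM in HFD-STZ DHZ, 1.68, 1.21 and 1.40 CPM in HFD-STZ vehicle and 1.44, 1.45 and 2.02 CPM in NCD vehicle. Both had every HFD-STZ DHZ library above every other one, with HFD-STZ DHZ replicate 3 the highest of all.

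Against HFD-STZ vehicle, C1qa rose by 1.86 on the log2 scale (SE 0.48, adjusted p = 0.019), C1qb by 1.60 (SE 0.34, adjusted p = 0.0096) and C1qc by 1.28 (SE 0.30, adjusted p = 0.014), from edgeR's quasi-likelihood fit. C1q is assembled from equal numbers of the 3 chains. Per kilobase of exon, C1qa and C1qb were at like levels in HFD-STZ DHZ (5.23 and 5.19 CPM per kb), and C1qc was lower at 1.83 CPM per kb. In HFD-STZ vehicle the means were 1.31, 1.65 and 0.742 CPM per kb for C1qa, C1qb and C1qc, and in NCD vehicle 2.87, 2.19 and 0.849 CPM per kb. C1qc was thus the lowest of the 3 per length in each group. This ranking rests on the annotated exon lengths, 1931 bp for C1qc against 1040 and 1088 bp for C1qa and C1qb, and does not measure the chains.

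Mpeg1 encodes a pore-forming protein that attacks engulfed bacteria. It stood at 10.3, 11.7 and 18.8 CPM in HFD-STZ DHZ, against 6.29, 6.61 and 4.13 CPM in HFD-STZ vehicle and 7.00, 6.36 and 7.13 CPM in NCD vehicle. The treated libraries did not overlap with either other group. The rise against HFD-STZ vehicle was 1.28 (log2, SE 0.27, adjusted p = 0.0088, edgeR).

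Lyz2, the gene of the lysozyme that digests bacterial cell walls, is also used by neutrophils. It stood at 12.1, 15.8 and 15.6 CPM in HFD-STZ DHZ, against 10.4, 3.78 and 3.57 CPM in HFD-STZ vehicle and 2.51, 3.57 and 6.59 CPM in NCD vehicle. The treated libraries did not overlap with either other group, though HFD-STZ vehicle replicate 1 came close to the lowest of them. The log2 difference from HFD-STZ vehicle was 1.27 (SE 0.42) with an edgeR adjusted p of 0.051, so it was not called there. Its near relative Lyz1, with which reads could be shared, had 0 to 17 counts per library.

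Cd68, a glycoprotein gene of lysosomes and endosomes, stood at 1.29, 1.19 and 2.59 CPM in HFD-STZ DHZ, against 1.14, 0.405 and 1.12 CPM in HFD-STZ vehicle and 0.749, 0.748 and 0.997 CPM in NCD vehicle. The treated libraries did not overlap with either other group, but HFD-STZ vehicle replicates 1 and 3 came close to the lowest of them. The log2 difference from HFD-STZ vehicle was 0.82 (SE 0.44, edgeR adjusted p = 0.19).

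Adgre1, which encodes the adhesion receptor long used to stain mouse macrophages, was the least abundant marker per length in each group. Its levels were 1.09, 0.648 and 1.31 CPM in HFD-STZ DHZ, 0.813, 0.674 and 0.201 CPM in HFD-STZ vehicle and 0.214, 0.665 and 0.460 CPM in NCD vehicle. HFD-STZ DHZ replicate 2 fell within both other groups, and the log2 difference from HFD-STZ vehicle of 0.91 (SE 0.57) had an edgeR adjusted p of 0.27.

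Mrc1, the mannose receptor gene, which is high in many resident macrophages, stood at 3.59, 2.33 and 5.00 CPM in HFD-STZ DHZ, against 2.39, 1.62 and 1.40 CPM in HFD-STZ vehicle and 1.60, 2.24 and 2.71 CPM in NCD vehicle. HFD-STZ DHZ replicate 2 overlapped with both. The log2 difference from HFD-STZ vehicle was 1.00 (SE 0.36, edgeR adjusted p = 0.064).

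Cd14, the gene of the co-receptor that hands bacterial lipopolysaccharide to TLR4, stood at 1.35, 2.16 and 3.37 CPM in HFD-STZ DHZ, against 1.79, 1.75 and 0.843 CPM in HFD-STZ vehicle and 0.909, 0.956 and 2.17 CPM in NCD vehicle. The groups overlapped. Its log2 difference from HFD-STZ vehicle, 0.69 (SE 0.47, edgeR adjusted p = 0.30), was the smallest of the 9 positive ones.

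**Figure D1:**
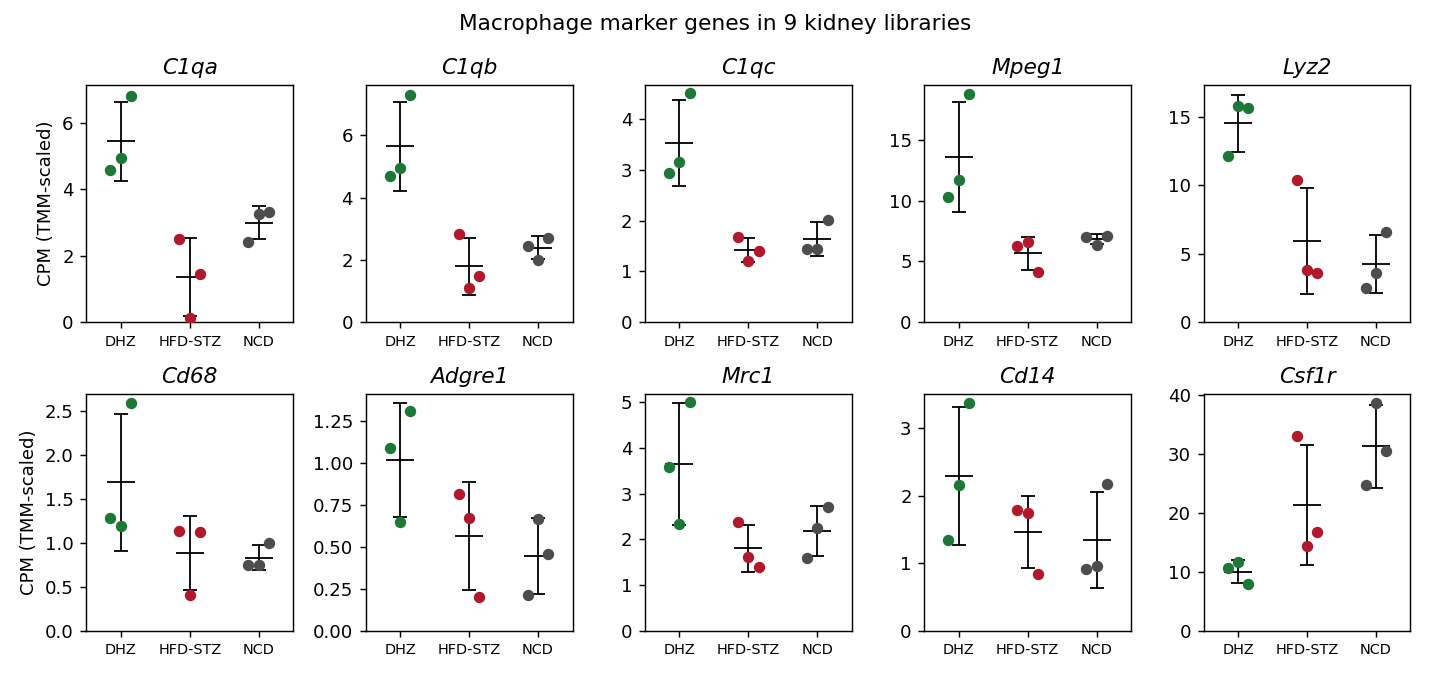
TMM-scaled CPM of the 10 markers in each library (points; replicates 1 to 3 from left to right) with the group mean (long line) and SD (bar, n = 3). HFD-STZ DHZ (DHZ) is on the left, HFD-STZ vehicle (HFD-STZ) in the middle and NCD vehicle (NCD) on the right; C1qa, C1qb, C1qc, Mpeg1, Lyz2 and Cd68 have all DHZ points above the rest, and Csf1r has all of them below.

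Csf1r went the other way. It stood at 10.7, 11.6 and 7.88 CPM in HFD-STZ DHZ, against 33.0, 14.4 and 16.7 CPM in HFD-STZ vehicle and 24.7, 38.7 and 30.6 CPM in NCD vehicle. Every treated library lay below the other 6, and replicate 3, the highest of its group for 8 of the 10 markers, was the lowest of its group for Csf1r. Against HFD-STZ vehicle Csf1r fell by 1.09 on the log2 scale (SE 0.31, edgeR adjusted p = 0.027). Groups did not overlap for 6 markers with HFD-STZ DHZ higher and for 1 with it lower, where 20.9% and 19% of all genes did so (39.8% in either direction). At an unadjusted p below 0.05, 7 of the 10 markers and 37.1% of all genes differed.

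Within single libraries, Csf1r was also set against the other markers, which needs no scaling between libraries. Such a share cannot tell a fall of Csf1r from a rise of the others. The size of the fall changed with scaling, and TMM factors ran from 0.327 (HFD-STZ vehicle replicate 2) to 1.63 (NCD vehicle replicate 3). On library size only, Csf1r was at -0.55 against HFD-STZ vehicle and was not called (edgeR adjusted p = 0.52). Csf1r made up 20.4%, 19.8% and 10.8% of the summed counts of the 10 genes in the HFD-STZ DHZ libraries, against 52.5%, 45.5% and 51.7% in HFD-STZ vehicle and 56.1%, 64.6% and 52.1% in NCD vehicle. For each count of the 3 C1q genes there were 0.880, 0.885 and 0.423 counts of Csf1r in HFD-STZ DHZ, against 4.72, 5.94 and 3.86 in HFD-STZ vehicle and 3.92, 5.79 and 3.81 in NCD vehicle. The treated libraries lay apart from the other 6, which overlapped with each other. Per kilobase of exon, Csf1r averaged 1.74 CPM per kb in HFD-STZ DHZ, where Lyz2 (11), C1qa, C1qb, Mpeg1 (3.14) and C1qc exceeded it. In HFD-STZ vehicle it averaged 3.71 CPM per kb, second to Lyz2 at 4.50, and in NCD vehicle its 5.43 CPM per kb was the highest of the 10.

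The Csf1r value has a limit of its own. In the annotation its exons overlap those of Hmgxb3, a gene on the opposite strand, and the sources used here do not give the strand setting of the counting, so reads in the shared stretch may have been assigned to either gene or dropped. Hmgxb3 stood at 5.73, 6.71 and 7.24 CPM in HFD-STZ DHZ, against 7.48, 4.18 and 8.31 CPM in HFD-STZ vehicle and 7.06, 6.65 and 6.44 CPM in NCD vehicle. These groups overlapped, with a log2 difference from HFD-STZ vehicle of -0.05 that turned positive under other settings. The part of the overlap in the Csf1r result was not tested.

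**Figure D2:**
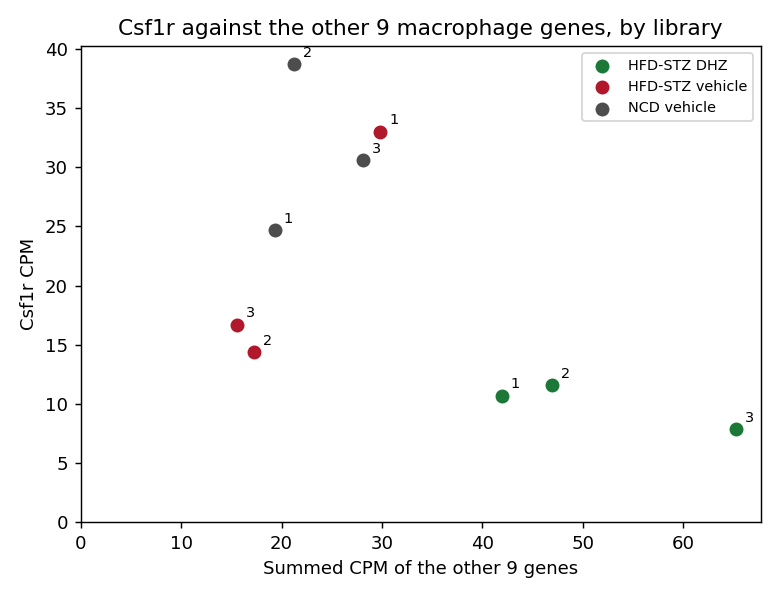
Csf1r CPM (vertical axis) against the summed CPM of the other 9 markers (horizontal axis) in each of the 9 libraries, numbered by replicate. The 3 HFD-STZ DHZ libraries sit at the lower right, with 41.9 to 65.2 CPM for the 9 genes, and the HFD-STZ vehicle and NCD vehicle libraries at the left, with 15.6 to 29.8 CPM.

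The calls differed in how far they rested on single libraries. C1qb, C1qc and Mpeg1 were called against HFD-STZ vehicle whichever of the 9 libraries was left out, with log2 values of 1.39 to 2.07, 1.08 to 1.40 and 0.99 to 1.45. C1qa was lost at adjusted p-values of 0.051 to 0.054 without HFD-STZ vehicle replicate 3 or any 1 HFD-STZ DHZ library, at 1.68 to 1.99, and without the shallow HFD-STZ vehicle replicate 2 it was 1.48 (edgeR adjusted p = 0.013). Csf1r was lost without HFD-STZ vehicle replicate 1, its highest library there (-0.65, edgeR adjusted p = 0.094), and without HFD-STZ DHZ replicate 1, 2 or 3 (-1.13, -1.20 and -0.94, with adjusted p-values of 0.083, 0.068 and 0.087). Since sexes were mixed, the libraries were also fitted apart by Y-linked transcripts, a choice made after the data were seen that leaves 1 library in a group, assumed to vary like the others. In the 4 libraries with them the log2 difference from HFD-STZ vehicle was 2.85 for C1qa, 2.45 for C1qb and -1.0 for Csf1r, and in the 5 without them it was 0.94, 0.78 and -1.56. For C1qa, C1qb and Csf1r directions held in both fits. The median over the whole marker set was 1.77 in the libraries with Y-linked transcripts and 0.37 in those without them, against 1.13 in the full fit. The rise of the set was thus smaller in the libraries without Y-linked transcripts, and the difference between the fits was not tested. The parts of sex and of these single libraries in it cannot be told apart.

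Set against the healthy group, treated diabetic kidneys showed a like split. Relative to NCD vehicle, C1qb rose by 1.23 (SE 0.33, adjusted p = 0.030), C1qc by 1.09 (SE 0.29, adjusted p = 0.030), Mpeg1 by 0.99 (SE 0.26, adjusted p = 0.029) and Lyz2 by 1.75 (SE 0.42, adjusted p = 0.024), all log2 values from edgeR. Csf1r fell by 1.64 (SE 0.31, adjusted p = 0.012), to a mean of 10.1 ± 1.93 CPM in HFD-STZ DHZ, against 31.3 ± 7.04 CPM in NCD vehicle (SD, n = 3 each). That is 4 markers higher and 1 lower of 10, where 13.7% of all genes were called, 6.31% higher and 7.38% lower. The median log2 value was 1.00 over the 10 markers and 0.01 over all genes. This comparison and the previous one share the HFD-STZ DHZ libraries, so they are not independent of each other.

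The other 5 markers were not called against NCD vehicle. C1qa had a log2 difference of 0.86 (SE 0.45, adjusted p = 0.21) although its groups did not overlap, and Adgre1, Cd68, Cd14 and Mrc1 had 1.14, 1.00, 0.73 and 0.71 with edgeR adjusted p-values of 0.17, 0.13, 0.28 and 0.17. Groups did not overlap for 6 markers with HFD-STZ DHZ higher and 1 with it lower, against 22.4% and 21.7% of all genes (44.1% in either direction). Leaving out a library of either group compared lowered the count: without HFD-STZ DHZ replicate 1 or 2 none of the 10 was called, 2 were without replicate 3, 1 without NCD vehicle replicate 1 or 2 and 3 without NCD vehicle replicate 3. Leaving out HFD-STZ vehicle replicate 1, 2 or 3 left 5, 6 and 5 called. Among these 9 fits Csf1r was called in 7, all but those without HFD-STZ DHZ replicate 1 or 2. Over these fits Csf1r stayed between -1.45 and -1.78 and C1qb between 1.02 and 1.36. At an unadjusted p below 0.05, 6 of the 10 markers and 31.7% of all genes differed in the full fit.

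Without DHZ, the high-fat diet and streptozotocin together left the markers without a call. No group had streptozotocin without that diet, or that diet without streptozotocin, so their parts cannot be told apart. None of the 10 passed in HFD-STZ vehicle against NCD vehicle, where 0.0524% of all genes did (0.0233% higher and 0.0291% lower), none had an unadjusted edgeR p below 0.05 (7.43% of all genes), and DESeq2 and limma-voom called none either. The estimates ran from -1.0 for C1qa (SE 0.48, adjusted p = 0.69) to 0.49 for Lyz2 (SE 0.43, adjusted p = 0.80), with a median of -0.23 against 0.00 over all genes. Csf1r averaged 21.4 ± 10.1 CPM in HFD-STZ vehicle, against 31.3 ± 7.04 CPM in NCD vehicle (SD, n = 3 each), a log2 difference of -0.54 (SE 0.31, edgeR adjusted p = 0.73). All 10 markers overlapped between these groups, where 11.4% of all genes did not (4.83% higher and 6.56% lower in HFD-STZ vehicle). With standard errors of 0.27 to 0.61 and 3 libraries a group, differences larger than the SE could also go uncalled, as the estimate of -1.0 for C1qa did.

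**Figure D3:**
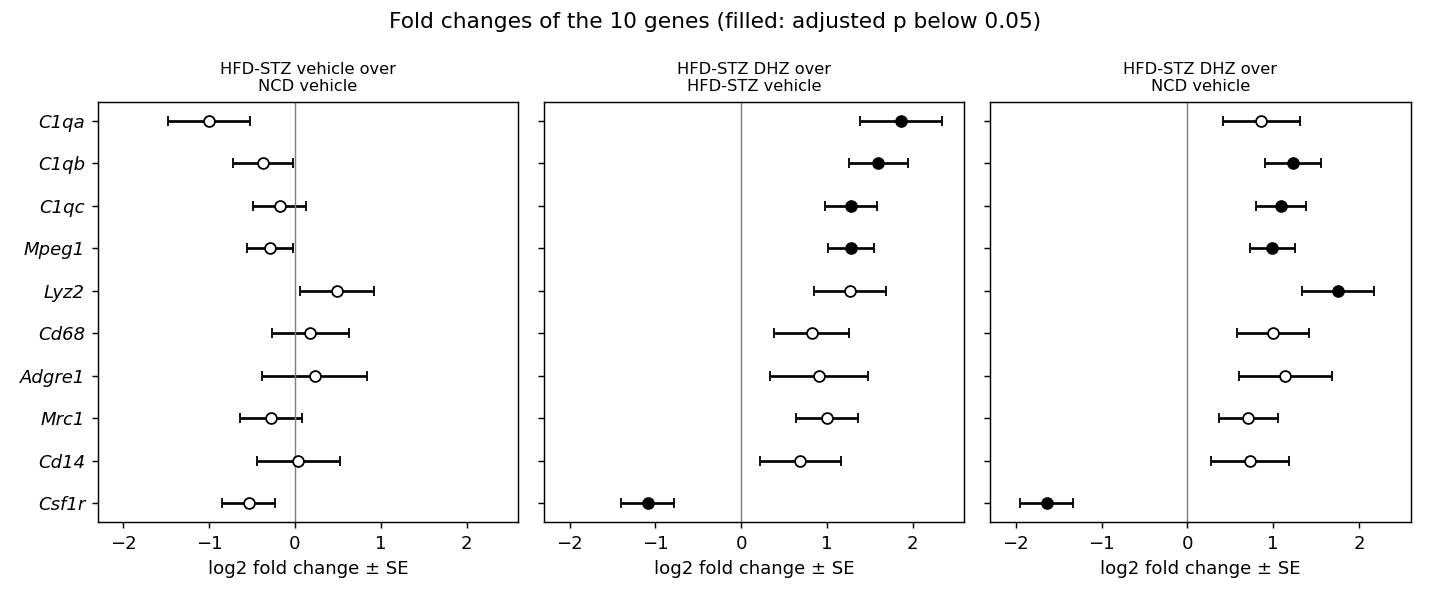
Log2 fold change (horizontal axis) of each marker with its SE (bar) in the 3 comparisons, from the fit over all 9 libraries; filled points had an adjusted p below 0.05. In HFD-STZ DHZ over HFD-STZ vehicle 9 markers are right of 0 and Csf1r is left of it at -1.09, and over NCD vehicle Csf1r is at -1.64, while no point is filled for HFD-STZ vehicle over NCD vehicle.

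The ligands of the receptor were called in no comparison. Csf1 averaged 4.40 ± 1.54 CPM in HFD-STZ DHZ, 3.97 ± 1.07 CPM in HFD-STZ vehicle and 4.02 ± 0.282 CPM in NCD vehicle, with a log2 difference of 0.14 between the first 2 (SE 0.29, edgeR adjusted p = 0.76). Il34, the ligand made largely by tubule cells, stood at 1.09, 1.65 and 8.03 CPM in HFD-STZ DHZ, 1.57, 2.29 and 8.47 CPM in HFD-STZ vehicle and 1.76, 1.20 and 1.23 CPM in NCD vehicle. One library of each diabetic group, replicate 3, was high, and no comparison was called. Of 10 genes listed for the ligands and signalling of CSF1R, 1 rose and 1 fell against HFD-STZ vehicle, a share near the 22.1% of all genes called. Cbl, the ubiquitin ligase that removes active CSF1R from the surface, fell by 0.86 (edgeR adjusted p = 0.012), to a mean of 12.6 ± 2.13 CPM in HFD-STZ DHZ, against 23.0 ± 2.51 CPM in HFD-STZ vehicle (SD, n = 3 each). The list's median was 0.27. Against NCD vehicle only Sos1, a RAS exchange factor, was called (0.65 higher, edgeR adjusted p = 0.048), where 13.7% of all genes were.

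The partners of CD14 at the cell surface were called in no comparison either. Tlr4 averaged 1.23 ± 0.203 CPM in HFD-STZ DHZ, 0.896 ± 0.597 CPM in HFD-STZ vehicle and 0.959 ± 0.330 CPM in NCD vehicle, and its co-receptor gene Ly96 2.16 ± 0.278, 2.27 ± 1.32 and 1.93 ± 0.0624 CPM in the same groups (SD, n = 3 each). Of the 10 tested genes of that pathway, the adaptor gene Traf6 was 0.81 higher (edgeR adjusted p = 0.039) relative to HFD-STZ vehicle, and the kinase gene Irak1 fell by 0.74 (edgeR adjusted p = 0.049). Over all genes 10% were called higher and 12% lower in that comparison. The median of the 10 was 0.20, and none of them was called against NCD vehicle, where 13.7% of all genes were.

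Among 11 partners of C1q in complement, C3, the component that all pathways of complement cleave, was the one called higher, and none was called lower. It stood at 19.2, 16.5 and 52.1 CPM in HFD-STZ DHZ, against 9.60, 4.18 and 4.78 CPM in HFD-STZ vehicle and 3.58, 4.99 and 6.90 CPM in NCD vehicle. No treated library overlapped with the others, and the log2 rise was 2.22 against HFD-STZ vehicle (SE 0.48, edgeR adjusted p = 0.011) and 2.49 against NCD vehicle (SE 0.48, edgeR adjusted p = 0.013). That is 1 of 11 in each comparison, where 22.1% and 13.7% of all genes were called. The list holds the proteases C1ra, C1s1 and C2, the C4 genes and the inhibitor Serping1, and its median was 0.62 against HFD-STZ vehicle and -0.28 against NCD vehicle. Against HFD-STZ vehicle 7 estimates were above 0 and 4 below, from -2.27 to 2.22. Against NCD vehicle 3 were above 0 and 8 below. Tubule cells express C3 as well as macrophages.

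Few other macrophage genes were called. Of 24 listed, 16 could be tested, 8 were too low (Cd163, Trem2, Lyve1, Timd4, Msr1, Marco, Vsig4 and Gpnmb), and Marco had no count in any library. Ctss, the gene of a protease that trims antigens for presentation, rose to 8.17, 9.33 and 15.3 CPM in HFD-STZ DHZ, against 5.04, 3.78 and 3.25 CPM in HFD-STZ vehicle and 3.42, 3.82 and 5.09 CPM in NCD vehicle. Its log2 rise was 1.44 (edgeR adjusted p = 0.0081) against HFD-STZ vehicle and 1.40 (edgeR adjusted p = 0.014) against NCD vehicle, with no overlap. Folr2, a folate receptor gene of resident macrophages, stood at 1.53, 1.88 and 1.45 CPM in HFD-STZ DHZ, 2.93, 1.48 and 0.602 CPM in HFD-STZ vehicle and 3.90, 5.90 and 4.52 CPM in NCD vehicle. It fell against NCD vehicle by 1.55 (edgeR adjusted p = 0.033), the direction of Csf1r, and was at -0.03 against HFD-STZ vehicle. Spi1, the gene of PU.1, was outside the naming rule and added after its values were seen. It stood at 0.941, 0.848 and 1.80 CPM in HFD-STZ DHZ, against 2.39, 2.83 and 2.29 CPM in HFD-STZ vehicle and 2.94, 0.997 and 1.07 CPM in NCD vehicle. All treated libraries lay below HFD-STZ vehicle but overlapped with NCD vehicle, and the log2 difference from HFD-STZ vehicle, -1.06 (SE 0.45, edgeR adjusted p = 0.11), was not called. In all, 2 of 16 were called higher and 0 lower against HFD-STZ vehicle (median 0.70), with 11 estimates above 0 and 5 below, where 22.1% of all genes were called and 10% were higher. Against NCD vehicle 1 was higher and 1 lower (median 0.69), with 13 estimates above 0 and 3 below, where 13.7% of all genes were called.

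Some genes expressed by leukocytes of all kinds were called beside the macrophage genes, and their part in the results was not tested. Ptprc, the gene of the pan-leukocyte antigen CD45, stood at 6.53, 6.43 and 13.5 CPM in HFD-STZ DHZ, against 4.39, 3.78 and 2.69 CPM in HFD-STZ vehicle and 2.41, 3.28 and 3.45 CPM in NCD vehicle. It rose by 1.29 against HFD-STZ vehicle (edgeR adjusted p = 0.018) and by 1.52 against NCD vehicle (edgeR adjusted p = 0.016). Of 8 pan-leukocyte genes 4 rose against HFD-STZ vehicle (Ptprc, Cd53, Lcp1 and Arhgdib, median 0.96) and 3 against NCD vehicle (median 0.74), where 10% and 6.31% of all genes were higher. The list summed to 37.8 to 54.3 CPM in HFD-STZ DHZ, 14.8 to 28.5 CPM in HFD-STZ vehicle and 21.2 to 25.5 CPM in NCD vehicle.

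Of 9 tested monocyte genes, 2 rose against HFD-STZ vehicle (median 1.22): Plac8 by 1.22 (edgeR adjusted p = 0.019) and the fibronectin gene Fn1, which stromal cells also express, by 1.42 (edgeR adjusted p = 0.0094). In that comparison 10% of all genes were called higher. Against NCD vehicle none of the 9 was called, where 13.7% of all genes were, though all 9 estimates were above 0 (median 0.81). The monocyte list summed to 19.5 to 37.6 CPM in HFD-STZ DHZ, 11.3 to 12.8 CPM in HFD-STZ vehicle and 13.2 to 16.4 CPM in NCD vehicle. Neutrophil genes were near the floor. Of 12, 3 could be tested, Camp and Mpo had no count in any library, and the sum was 1.47 to 2.09 CPM in HFD-STZ DHZ, 0.674 to 1.12 CPM in HFD-STZ vehicle and 0.499 to 1.46 CPM in NCD vehicle. S100a9, an alarmin gene of neutrophils and monocytes, was the one called higher (2.12 against HFD-STZ vehicle, edgeR adjusted p = 0.042, on 0.648 to 0.823 CPM in HFD-STZ DHZ). That is 1 of 3 tested, where 10% of all genes were called higher. None of the 3 was called against NCD vehicle, where 13.7% of all genes were.

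Of 7 tested dendritic cell genes, the lectin gene Cd209a rose against HFD-STZ vehicle (2.33, edgeR adjusted p = 0.026) and the chemokine receptor gene Xcr1 against NCD vehicle (1.57, edgeR adjusted p = 0.030). That is 1 of 7 in each comparison, where 22.1% and 13.7% of all genes were called. The dendritic cell list summed to 13.2 to 19.2 CPM in HFD-STZ DHZ, 12.6 to 15.4 CPM in HFD-STZ vehicle and 11 to 13.1 CPM in NCD vehicle. None of the 7 tested T, NK and B cell genes was called, with medians of 0.61 and 0.50 and 1 gene at an unadjusted edgeR p below 0.05 in each of the 2 comparisons. They summed to 4.79 to 6.51 CPM in HFD-STZ DHZ, 2.65 to 4.82 CPM in HFD-STZ vehicle and 3.90 to 4.20 CPM in NCD vehicle.

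**Figure D4:**
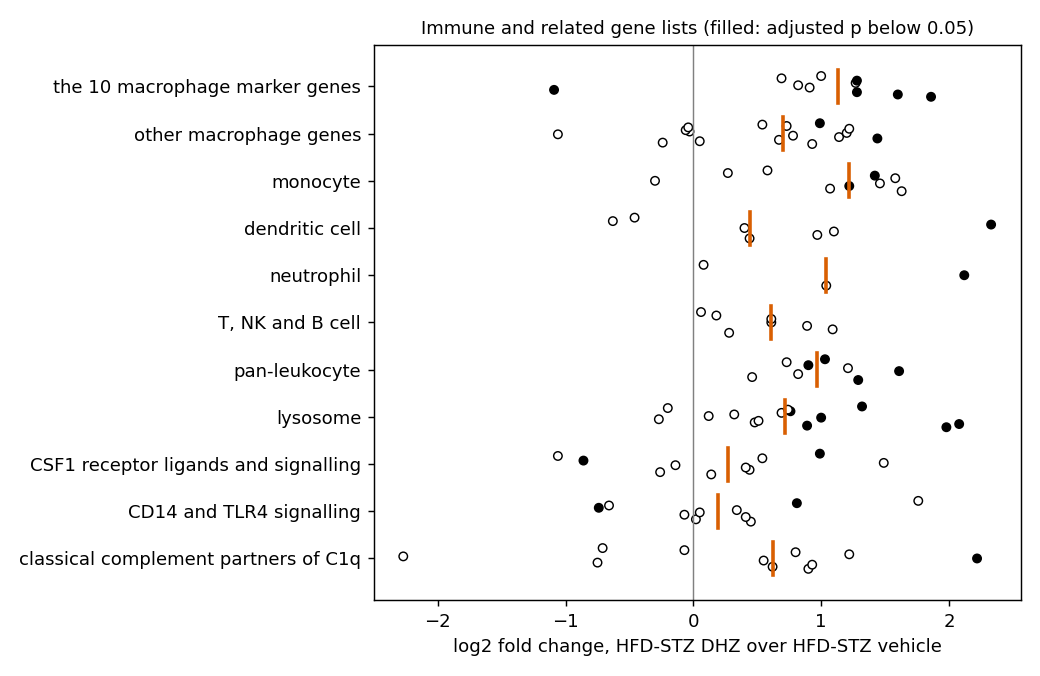
Log2 fold changes, HFD-STZ DHZ over HFD-STZ vehicle (horizontal axis), of each tested gene (points; filled had an adjusted p below 0.05) in the marker set and 10 other lists (rows), with the list median as a vertical bar. Medians are right of 0 in all 11 lists, from 0.20 for CD14 and TLR4 signalling to 1.22 for the monocyte list, and Csf1r is the filled marker at -1.09.

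Lysosomal genes are shared by macrophages and the proximal tubule. Of 14, 6 rose against HFD-STZ vehicle (Lamp1, Lamp2, Ctsl, Hexa, Npc2 and Scarb2, median 0.72), where 10% of all genes did, and 2 against NCD vehicle (median 0.45), where 6.31% did. None fell. Ctsl, a cathepsin gene, reached 111, 123 and 130 CPM in HFD-STZ DHZ, against 26.4, 22.9 and 36.4 CPM in HFD-STZ vehicle and 43.4, 50.7 and 56.4 CPM in NCD vehicle. That was a rise of 2.08 (edgeR adjusted p = 0.0031) and 1.28 (edgeR adjusted p = 0.010). Ctsl averaged 18.7 CPM per kb in HFD-STZ DHZ, where Lyz2, the highest marker, averaged 11 CPM per kb, and 4.41 CPM per kb in HFD-STZ vehicle, where Lyz2 averaged 4.50 CPM per kb.

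Some genes of injured tubules were also called, and their part in the marker results was not tested. Spp1, the osteopontin gene of injured tubules and of some macrophages, stood at 440, 444 and 1921 CPM in HFD-STZ DHZ, against 164, 243 and 137 CPM in HFD-STZ vehicle and 105, 250 and 256 CPM in NCD vehicle. It rose by 2.37 against HFD-STZ vehicle (edgeR adjusted p = 0.017), and replicate 3, the library with most C1q RNA, was again the highest. Vcam1, an adhesion molecule gene of injured tubules and activated endothelium, was at 29.8 CPM in that library and at 5.82 and 6.74 CPM in the other two, with 2.70 to 5.15 CPM in HFD-STZ vehicle (log2 1.87, edgeR adjusted p = 0.048). Of the 9 tested genes of injured tubules, 2 rose and 1, the transcription factor gene Sox9, fell against HFD-STZ vehicle (median 0.90), where 10% and 12% of all genes did. Against NCD vehicle 3 of the 9 rose, Sox9, Spp1 and the cell-cycle inhibitor gene Cdkn1a, and none fell (median 1.86), where 6.31% and 7.38% of all genes did. Sox9 stood at 6.26, 6.19 and 5.55 CPM in HFD-STZ DHZ, against 14.0, 9.98 and 19.3 CPM in HFD-STZ vehicle and 0.642, 1.25 and 1.33 CPM in NCD vehicle. The treated libraries lay between the other groups. Havcr1, a marker of tubule injury outside the naming rule and added after its values were seen, stood at 0.235, 2.59 and 46.3 CPM in HFD-STZ DHZ, against 0.217, 1.08 and 0.762 CPM in HFD-STZ vehicle and 0.374, 0.291 and 0.0767 CPM in NCD vehicle. It was high in the library with most C1q RNA and was called in no comparison. Of 12 endothelial genes, Stab2 was called higher against HFD-STZ vehicle, on at most 0.559 CPM, and Flt1 lower against NCD vehicle (fell by 0.92, edgeR adjusted p = 0.029). That is 1 of 12 in each comparison, where 22.1% and 13.7% of all genes were called. Among the 24 list genes named here or by the naming rule as called against HFD-STZ vehicle, 7 were called whichever library was left out, and C3, Ctss, Fn1 and Ctsl were among them. Against NCD vehicle this held for 1 of 16, Sox9.

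Genes with a pattern most like that of the C1q genes were sought among the 10217 tested genes whose mean log2 CPM reached 1. Likeness was the root-mean-square difference over the 9 libraries between centred log2 CPM values, which is 0 for identical patterns. Closest to the mean of C1qa, C1qb and C1qc were Coro1b (0.25), B4galt4 and Ier5 (0.27 each), Npl and Cd52 (0.28 each). Npl, a sialic acid lyase gene, averaged 7.58 ± 0.322 CPM in HFD-STZ DHZ, 1.88 ± 1.03 CPM in HFD-STZ vehicle and 2.65 ± 0.293 CPM in NCD vehicle (SD, n = 3 each), and Cd52 is a leukocyte surface gene. Among the markers C1qb itself was at 0.23, C1qc at 0.44, Cd68 at 0.45, Mrc1 at 0.55, Mpeg1 at 0.58, C1qa at 0.63, Lyz2 at 0.65, Cd14 at 0.81, Adgre1 at 0.86 and Csf1r at 1.36. Csf1r was thus the farthest of the 10 from the C1q pattern.

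Closest to Cd14 were Slc12a2, Tgtp2 (0.28 each), Tgtp1 (0.29), Fosl2 and Cep170 (0.32 each). Tgtp1 and Tgtp2 are near-identical GTPase genes whose reads cannot be kept apart with certainty. Closest to Csf1r, a search added after its values were seen, were Vwa1 (0.24), Tle2, Vwa2 and Ggnbp1 (0.28 each) and Celsr2 (0.29). None of the 9 other markers came nearer to Csf1r than Mrc1, at 1.11.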

How the data were processed

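Poly(A) RNA of 9 mouse kidney samples was sequenced from stranded libraries, per the labels' protocols. The deposited table holds the authors' raw counts per gene as whole numbers, with 0 further columns of per-sample values. Per the submitters' processing notes, the tools were FastQC, Trim Galore and STAR and the genome build GRCm39 (mm39). The sources used here do not give versions, the counting program or its strand setting, so antisense and near-identical genes are uncertain. Groups come from sample titles, because the treatment label names the compound for all 9. Symbols were matched by Ensembl identifier for 94.1% of genes, and exon lengths and overlaps come from GENCODE M21.

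Counts were fitted in R 4.3.3 with edgeR 4.0.16: filterByExpr (17179 genes kept), TMM scaling, and 1 robust quasi-likelihood fit over the 3 groups (6 residual degrees of freedom, common dispersion 0.0893), adjusted by Benjamini-Hochberg over all genes and called below 0.05. Tests are two-sided, SE was derived from the F statistic, and group values are mean ± SD. Precision is limited by 15.1 to 47.5 M counts per library. The fit was tested on simulated data. Promoter windows were matched for 6 of the 10 genes, and the rest are not shown.

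Alternatives used DESeq2 1.42.0, limma 3.58.1 (voom), other scalings and filters, a replicate block, a Y-linked term and leaving out each library. The members and the 14 other gene lists, written from textbook knowledge, were chosen with earlier results of these data known. Named are the 10 markers, up to 4 called genes of lowest p per list and comparison, Csf1, Il34, Tlr4, Ly96 and Ptprc, and the 5 genes most like C1q and Cd14. Hmgxb3, Lyz1, Malat1, Spi1 and Havcr1 were added after their values were seen. Some genes that meet the rule are not reported here.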

Additional observations from a re-analysis of the deposited data

How the results depend on the processing

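The count of markers called in HFD-STZ DHZ against HFD-STZ vehicle, 5, was 3 without TMM scaling (library size only, which moved the median of all genes to 0.81 and ended the calls of C1qc and Csf1r), 2 and 3 in only the libraries with and without Y-linked transcripts, and 3 to 6 when 1 library was left out. Against NCD vehicle, 5 became 0 (library size only), 1 (replicate block), 0 (only libraries with Y-linked transcripts) and 0 to 6 (1 library left out). HFD-STZ vehicle against NCD vehicle had 0 markers called under every alternative. Genes called against HFD-STZ vehicle, 3796, became 888, 832 of them higher (library size only), 2159 (replicate block), 159 and 5766 (with and without Y-linked transcripts) and 1149 to 4086 (1 library left out). Against NCD vehicle, 2352 became 36 (library size only), 3981 (only the groups compared), 3530 (DESeq2), 772 (replicate block), 3617 (Y-linked term), 79 and 4869 (with and without Y-linked transcripts) and 112 to 3706 (1 left out). For HFD-STZ vehicle against NCD vehicle, 9 became 29 (library size only), 425 (no filter), 3 (only the groups compared), 126 (DESeq2), 2 (voom), 2 (replicate block), 42 (Y-linked term), 31 and 137 (with and without Y-linked transcripts) and 2 to 28 (1 left out). Deviations from the group means correlated at -0.41 to 0.22 between same-numbered libraries and at -0.35 to 0.5 between differently numbered ones. With 3 libraries a group these values cannot show whether the samples were paired. With the replicate numbers as a block Csf1r was no longer called against HFD-STZ vehicle (-1.07, edgeR adjusted p = 0.057). No called marker changed sign. Of 1594 gene values under the alternatives, 35 did. Without TMM, in HFD-STZ vehicle against NCD vehicle, these were Adgre1 (-0.51), Cd14 (-0.76), Cd68 (-0.49) and Lyz2 (-0.11), and in HFD-STZ DHZ against HFD-STZ vehicle Hmgxb3 (0.62), Il34 (0.63) and Pax8 (0.11). In the first of these comparisons Cd14 was -0.06 with voom and C1qb 0.22 without Y-linked libraries, and leaving out 1 library gave -0.32 to 0.73 for Adgre1, -0.19 to 0.60 for Cd14 and -0.21 to 0.97 for Lyz2. In the second, Ly96 was -0.01 (DESeq2 size factors), -0.07 (nuclear protein-coding genes only) and -0.41 (Y-linked libraries), Hmgxb3 0.03 (no filter) and 0.18 (Y-linked libraries), Il34 0.07 (Y-linked term) and 0.52 (Y-linked libraries), and Csf1 -0.54 and Tlr4 -0.23 (libraries without Y-linked transcripts). There, leaving out 1 library gave -0.26 to 0.15 for Hmgxb3, -1.61 to 0.93 for Il34, -0.28 to 0.52 for Ly96 and -0.16 to 0.38 for Csf1. The cause of these changes was not tested. The alternatives by Y-linked transcripts and on nuclear protein-coding genes only were chosen after the data were seen. C1qa, C1qb and C1qc had as few as 1, 8 and 9 counts in a library, which limits their precision. The same holds for Adgre1, Cd14, Cd68 and Mrc1, with as few as 3 to 13 counts.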
